A study of Macaca mulatta with 5 samples.

Results

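The genes described here span 300 kb or more of the rhesus macaque genome from the start to the end of a transcript. Membership depended on span alone, and RPKM decided only which long transcript stands for a gene. For each gene with an identifier, the transcript of at least 300 kb with the highest sum of RPKM over the tissues was used, where RPKM is a read count scaled by the kilobases of exon in the transcript and by the library's total of properly mapped reads. The rule gave 527 long genes of 28633 genes with an identifier, and the other 28106 genes are called shorter genes. A symbol could be matched to 478 of the long genes, and the other 49 are given by their identifiers.

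The data were strand-specific poly(A)-positive RNA-Seq libraries of 5 tissues of male rhesus macaque (Macaca mulatta), namely cerebellum, kidney, lung, heart and spleen, with no treatment stated for any of them. Each tissue had 1 library and no replicate. Cerebellum, kidney, lung and heart are described by the study as tissues of the same animal, whereas the animal of the spleen library is not stated. With 1 library per tissue there was no replicate check, so differences between tissues compare these libraries only, no test was made, and the 95% exact intervals given with ratios and values cover counting error only.

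A long gene consists mostly of introns, and RNA polymerase has to travel a long way before a complete transcript can be spliced and polyadenylated. Many genes of this size act in the nervous system, where they encode adhesion proteins of the synapse, ion channels and neurotransmitter receptors. Other very long genes are well known from muscle, such as those of dystrophin and the cardiac ryanodine receptor, or lie in chromosomal fragile sites.

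Properly mapped reads ranged from 48306898 in kidney to 81517974 in cerebellum. The markers fixed for each tissue were checked against the labels, and 39 of the 40 marker genes found in the files were highest in the tissue they mark. The exception was CALB1, a calcium-binding protein of Purkinje cells, which was higher in kidney (488 RPKM) than in cerebellum (108 RPKM). The heart library stood apart. Its read counts summed over the listed transcripts came to 47.9% of its mapped reads, against 71.3% to 91.5% in the other libraries. Transcripts of a gene can share reads, so these sums may count a read more than once. The upper quartile of RPKM over genes with reads was 4.84 in heart, against 8.22 to 11.3 in the other libraries. All 11 cerebellum markers had a value in heart of 0.195% to 0.852% of that in cerebellum, including ZIC1, GABRA6, CBLN1 and GFAP, which had no read in kidney or lung. Low heart values of genes that are high in cerebellum are therefore given with this share in view, and its part in them was not tested.

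The span of the long genes ranged from 300.923 kb to 1917.003 kb with a median of 411.626 kb. Of the 527 genes, 157 spanned 500 kb or more and 26 spanned 1 Mb or more. Their exons together had a median length of 4017 bp, against 1077 bp for shorter genes and 1884 bp for shorter genes with a symbol. Exons made up a median of 0.891% of the span of a long gene and 28.8% of that of a shorter gene. Long genes were 3.55% of the genes on chromosome 18, 3.42% on chromosome 5 and 3.17% on chromosome 3, whereas on the gene-dense chromosome 19 they were 0.179%, or 3 of 1679 genes.

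The longest member was LRP1B, which encodes a large receptor of the low-density lipoprotein receptor family and spans 1917003 bp on chromosome 12 (rheMac2, chr12:3737014-5654016). It had 0.335 RPKM in cerebellum from 377 reads, 0.00600 in kidney, 0.00745 in lung and no read in heart or spleen. Among the 10 longest members, only TAOK2 and PRKG1 reached 1 RPKM. PRKG1, the gene of a cyclic GMP-dependent protein kinase, had 1.28 RPKM in lung and 0.256 to 0.759 elsewhere. GPC5, a glypican of the cell surface, had 4 reads in cerebellum and none in the other tissues. CSMD3, which encodes a large neuronal membrane protein, had 0.133 RPKM in cerebellum, 0.00299 in heart and no read elsewhere. ENSMMUG00000016060, ENSMMUG00000029574 and ENSMMUG00000029762 had no read in any tissue. The remaining genes of the 10, BEND5 and ENSMMUG00000016062, stayed below 0.6 RPKM in all tissues. For BEND5 and TAOK2 the values are those of the long model only, as a transcript below 300 kb had a higher RPKM sum.

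Some of these models hold other genes. The TAOK2 model covers 1592091 bp with 47 other named genes inside it, with values from 2.41 RPKM in heart to 10.9 in lung. Whether a model of this kind is 1 transcription unit was not tested. In all, 117 long genes held at least 1 other named gene inside their span, and 22 held 3 or more, of which 16 had no symbol. At the edge of the rule, ENSMMUG00000004789 (300923 bp), PAK5 (301076 bp) and PAPPA2 (301139 bp) were just inside. ENSMMUG00000008630 (299412 bp), ENSMMUG00000012415 (298770 bp) and PPM1L (298593 bp) were just outside. PAK5, a kinase of neurons, had 9.48 RPKM in cerebellum and at most 0.117 elsewhere, while PPM1L, a protein phosphatase, lay between 0.665 and 1.65 RPKM in all tissues.

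Long genes were detected most often in cerebellum. Detection means 1 RPKM or more, and it held for 314 of the 527 long genes in cerebellum (59.6%, interval 55.3% to 63.8%; all genes 39.9%), 274 in lung (52.0%; all genes 45.4%), 260 in kidney (49.3%; all genes 41.7%), 253 in spleen (48%; all genes 43.7%) and 180 in heart (34.2%; all genes 32.5%). With detection set at 5 RPKM, or with a span of 500 kb or more, long genes were detected less often than all genes outside the cerebellum (in lung 22.2% against 27.7% and 40.6% against 45.4%), and more often only in cerebellum. Among shorter genes the order was different, with lung first at 45.3% and cerebellum at 39.5%. Many shorter genes have no symbol and short exons, so the comparison was also made with genes that have a symbol. There, long genes were detected more often than shorter genes in cerebellum (62.1% against 55.5%) and less often in kidney (51.9% against 58.2%), lung (54.4% against 62.9%), heart (35.8% against 45.7%) and spleen (50.4% against 60.3%), and none of the intervals overlapped. These intervals treat genes as independent, which they are not, and are given as a description of the width that the number of genes allows.

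**Figure D1:**
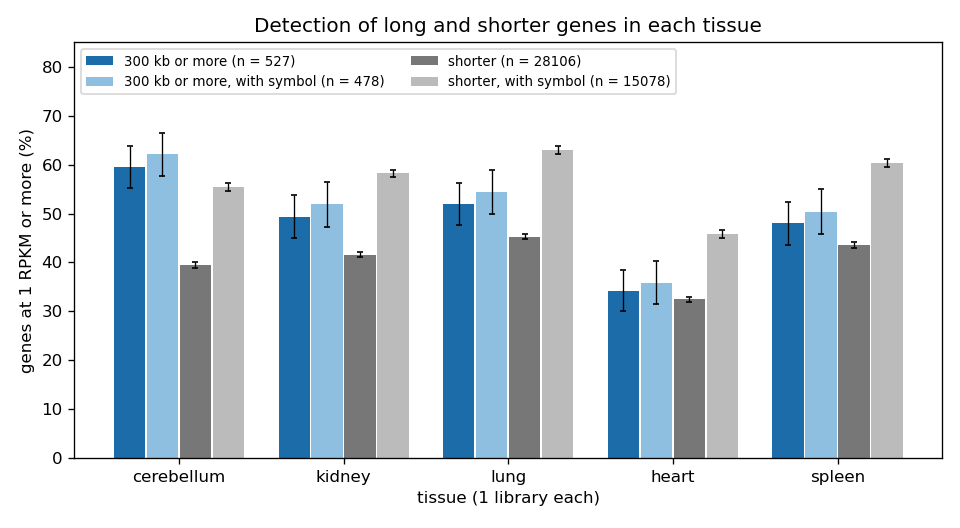
Share of genes at 1 RPKM or more (y axis, percent) in each tissue (x axis, 1 library each) for long and shorter genes, with and without the requirement of a gene symbol; bars start at 0 and error bars are 95% exact binomial intervals over genes. Against shorter genes with a symbol, long genes with a symbol are higher in cerebellum (62.1% against 55.5%) and lower in the other 4 tissues.

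The levels followed the same order. The median long gene had 1.77 RPKM in cerebellum, 1.23 in lung, 0.939 in kidney, 0.797 in spleen and 0.338 in heart. Ranked among all genes of a tissue, the median long gene stood at percentile 65.3 in cerebellum and between 54.8 (spleen) and 58.3 (heart) in the other tissues. This rank depended on which genes it was set against. Among genes with a symbol the median long gene stood at percentile 52.4 in cerebellum, 43.4 in heart, 43.3 in kidney, 40.9 in lung and 40.1 in spleen. Among genes with at least 2000 bp of exon it stood at percentile 43.3 in cerebellum and between 27.9 (lung) and 31.1 (heart) elsewhere. Cerebellum was the tissue of highest rank in each of these comparisons. The median long gene of cerebellum was above the middle of all genes and of genes with a symbol, but below the middle of genes with 2000 bp of exon or more.

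Of the 508 long genes with 3 or more reads in a tissue, 208 (40.9%, interval 36.6% to 45.4%; all genes 21.2%) had their highest RPKM in cerebellum. Lung was highest for 104 (20.5%; all genes 23.1%), kidney for 84 (16.5%; all genes 18.1%), spleen for 81 (15.9%; all genes 32.2%) and heart for 31 (6.10%; all genes 5.44%). Spleen was thus the tissue in which the most shorter genes peaked (32.6%), and cerebellum the tissue in which the most long genes peaked.

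The number of tissues in which a gene was detected also differed. Of the long genes, 121 (23.0%; all genes 27.5%) were detected in all 5 tissues, 109 (20.7%; all genes 45.2%) in none, and 117 (22.2%; shorter genes 8.55%) in exactly 1. Among genes with a symbol, 23.6% of long and 39.3% of shorter genes were detected in all 5 tissues. The shares in none were then 16.9% and 26.2%, and those in exactly 1 were 23.0% and 9.94%. Detection in cerebellum alone was found for 78 long genes (14.8%) and for 725 shorter genes (2.58%). Detection in kidney alone was found for 17 long genes (3.23%; shorter genes 1.67%) and in heart alone for 4 (0.759%; shorter genes 0.448%). The shares in lung alone (10 genes, 1.90%; shorter genes 1.93%) and spleen alone (8 genes, 1.52%; shorter genes 1.91%) were not above those of shorter genes. Of the 90 long genes below 1 RPKM everywhere that had 3 or more reads, 44 were highest in cerebellum. The same count was not made for shorter genes, so whether this is particular to long genes was not tested.

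A gene was called elevated in a tissue if it had at least 1 RPKM there and at least 4 times the RPKM of the highest other tissue, with values under 3 reads set to the RPKM of 3 reads. The ratios printed for single genes are those of the measured values, also where these rest on 1 or 2 reads, and their intervals show how little such reads fix. In cerebellum 107 long genes (20.3%, interval 16.9% to 24.0%) were elevated, against 3.14% (2.94% to 3.35%) of shorter genes, 4.13% of shorter genes with a symbol and 3.46% of all genes. In kidney 19 long genes (3.61%; all genes 2.48%) were elevated, in spleen 10 (1.90%; all genes 1.96%), in lung 5 (0.949%; all genes 1.85%) and in heart 5 (0.949%; all genes 0.695%). Thus 107 of the 146 long genes elevated in some tissue were elevated in cerebellum, and in the other tissues the interval of the long genes overlapped that of the shorter genes. These intervals also treat genes as independent and are no test. A further 272 long genes reached 1 RPKM without being elevated anywhere.

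The share elevated in cerebellum was largest in the classes of longest span. It was 2.40% below 10 kb, 3.72% from 10 to 50 kb, 3.80% from 50 to 100 kb, 6.83% from 100 to 300 kb, 18.6% from 300 to 500 kb and 24.2% at 500 kb or more. Among genes with a symbol the shares were 3.78%, 3.79%, 3.91%, 7.24%, 18.6% and 25.9% in the same order. The classes below 100 kb were then nearly alike. With all genes, the intervals of the last 2 classes, 14.8% to 23.0% and 17.7% to 31.7%, overlapped each other but not those of the shorter classes. Those of the 2 classes from 10 to 100 kb also overlapped each other. These intervals treat genes as independent, which they are not, and are no test of the classes. No such order was seen in the other tissues, where the share at 500 kb or more was at most 1.91%. Detection took another course, rising first and then falling. In lung it was 27.2% below 10 kb, 71.0% from 10 to 50 kb, 73.2% from 50 to 100 kb, 67.5% from 100 to 300 kb, 57.3% from 300 to 500 kb and 39.5% at 500 kb or more. In cerebellum detection was 24.0% below 10 kb, between 61.0% and 63.0% in the 4 classes from 10 to 500 kb, and 51.6% at 500 kb or more.

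**Figure D2:**
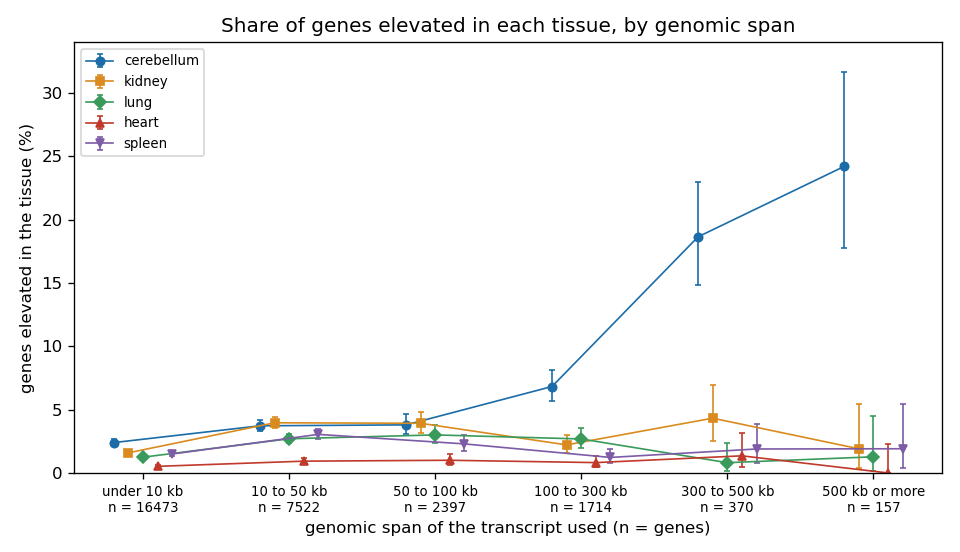
Share of genes elevated in each of the 5 tissues (y axis, percent) for 6 classes of genomic span (x axis, with the number of genes in each); points are shares and error bars 95% exact binomial intervals over genes. Cerebellum goes from 2.40% below 10 kb to 24.2% at 500 kb or more, while the other tissues stay below 5%.

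The 107 long genes elevated in cerebellum had a median of 8.12 RPKM there (1.01 to 171), and medians of 0.0456 in spleen, 0.0743 in heart, 0.0860 in kidney and 0.10 in lung. The ratio to the highest other tissue, as used for the call, was 10 or more for 70 of them and 100 or more for 21, and 74 were below 1 RPKM in every other tissue. The next tissue was kidney for 32, heart for 27, lung for 24 and spleen for 24, so no tissue came second throughout. Heart values of these genes were a median of 0.698% of those in cerebellum, with an upper quartile of 2.51% and a highest value of 18.6%. The 11 cerebellum markers had a median of 0.367% and lay between 0.195% and 0.852%. In these bulk libraries, fewer cells of a type and less RNA per cell cannot be told apart.

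**Figure D3:**
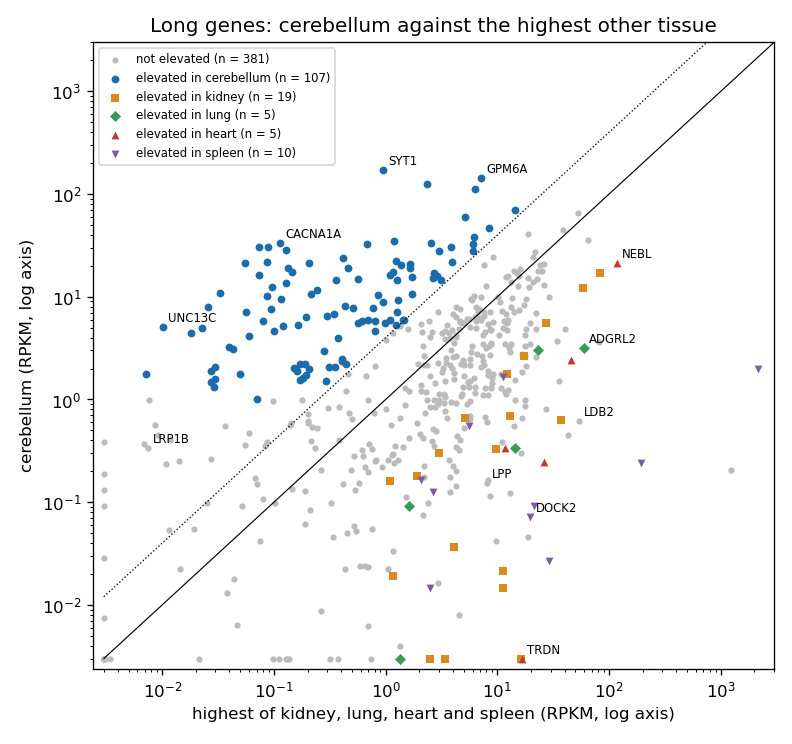
RPKM of the 527 long genes in cerebellum (y axis, log scale) against the highest value of kidney, lung, heart and spleen (x axis, log scale), with values below 0.003 drawn at 0.003; each point is 1 gene, the solid line marks equal values and the dotted line a ratio of 4. The 107 genes elevated in cerebellum lie above the dotted line, and the 39 elevated elsewhere below the solid line.

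The highest member in cerebellum was SYT1, which encodes synaptotagmin-1, the calcium sensor that triggers release of synaptic vesicles (chr11:75888259-76478942). It had 171 RPKM in cerebellum (interval 170 to 173, 62004 reads), 0.949 in heart, 0.918 in kidney, 0.667 in spleen and 0.336 in lung. Cerebellum was far above the other tissues, 180 times the heart value (160 to 204). Heart values of the 11 cerebellum markers were 0.195% to 0.852% of those in cerebellum. What part of the heart value of SYT1 goes with this share was not tested, nor was it for KCND2 and CACNA1A below. GPM6A, a neuronal membrane glycoprotein, had 143 RPKM in cerebellum, 7.19 in lung, 0.822 in spleen, 0.529 in heart and 0.302 in kidney, a ratio of 19.9 to lung. NRXN3, a presynaptic adhesion protein of the neurexin family, had 126 RPKM in cerebellum, 2.33 in lung and 0.472 to 0.684 in the other tissues. SPOCK1, an extracellular proteoglycan of the testican family, had 113 RPKM in cerebellum and 6.27 in kidney, with 0.546 to 1.08 elsewhere. PPP3CA, the catalytic subunit of calcineurin, was less restricted, with 69.5 RPKM in cerebellum, 14.3 in spleen, 12.4 in lung, 4.22 in kidney and 3.17 in heart.

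The largest ratios belonged to genes that were almost silent outside the cerebellum. UNC13C, a vesicle-priming protein of the Munc13 family (chr7:32525231-32935017), had 5.10 RPKM in cerebellum from 2106 reads, 4 reads in lung, 2 in heart and none in kidney or spleen, so that cerebellum was 502 times lung (196 to 1846), or 416 times as used for the call. KCND2, the pore-forming subunit of an A-type potassium channel (chr3:157790060-158269742), had 30.7 RPKM in cerebellum, 0.0739 in heart, 0.0705 in kidney, 0.0380 in spleen and no read in lung. Cerebellum was 415 times heart (232 to 832). CDH18, a cadherin, had 21.2 RPKM in cerebellum and at most 0.0547 elsewhere. CA10, a carbonic anhydrase-related protein that is secreted by neurons, had 30.7 RPKM in cerebellum, no read in kidney or spleen, 0.0230 in lung and 0.0894 in heart. CALN1, a neuronal calcium-binding protein, had 10.9 RPKM in cerebellum, 0.0326 in heart and 0.00664 in lung. All 5 genes were detected in cerebellum alone.

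Ion channels and neurotransmitter receptors were the list with the largest share elevated in cerebellum. Of its 38 long members, 19 were elevated there, 24 were detected there, and their median was 2.14 RPKM, against medians of 0.0273 to 0.0688 in the other tissues. Of the 14 listed genes of shorter span, 5 were elevated in cerebellum. The median over all 527 long genes in cerebellum was 1.77 RPKM. Since the list was written with earlier results of these data known, its count is not independent evidence of a direction.

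Glutamate receptors made up 8 of these 19 genes. The AMPA receptor subunit GRIA4 had 28.6 RPKM in cerebellum, no read in kidney or spleen, 0.0141 in lung and 0.127 in heart. The subunit GRIA1 had 14.9 RPKM in cerebellum, 0.569 in heart, 0.305 in spleen, 0.0952 in lung and no read in kidney, whereas GRIA3 had only 1.54 in cerebellum. GRID1, a subunit of a delta-type receptor, had 2.07 RPKM in cerebellum and at most 0.310 elsewhere. The NMDA receptor subunit GRIN2A had 2.20 RPKM in cerebellum. Not all receptors of this size were present, as GRIN2B had 0.0976 RPKM in cerebellum and 0.322 in heart, and GRM5, GRM7 and GRM8 had 0.266 to 0.595 RPKM in cerebellum. Over the whole family of glutamate receptors, 8 of 13 long genes and 8 of 13 shorter genes were elevated in cerebellum, so the share was the same at either span.

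Channels and their partners also covered a wide range. CACNA1A, the P/Q-type calcium channel (chr19:12884877-13188949), had 33.4 RPKM in cerebellum, no read in kidney, 0.0328 in spleen, 0.0425 in lung and 0.114 in heart, and cerebellum was 292 times heart (219 to 399). The Kv4 channel partners DPP6 and KCNIP4 had 33.4 and 10.2 RPKM in cerebellum, and DPP10 had 1.77. DPP6 was present at 2.56 RPKM in lung and 1.61 in spleen, whereas KCNIP4 did not pass 0.0860 in any other tissue. ITPR1, the inositol trisphosphate receptor that releases calcium in Purkinje cells, had 28.2 RPKM in cerebellum, 6.06 in kidney, 5.04 in spleen, 4.82 in lung and 0.644 in heart. It passed the threshold with a ratio of 4.65 (4.47 to 4.84) and was the elevated member of this list with the highest level outside the cerebellum. GABRB1, a subunit of the GABA type A receptor, had 16.2 RPKM in cerebellum and at most 0.0743 elsewhere. KCNJ6, an inwardly rectifying potassium channel, had 4.46 RPKM in cerebellum and 2 reads in kidney as its only reads elsewhere, a ratio of 245 (67.7 to 2029), or 164 as used for the call. Over all potassium channel genes, 6 of 14 long and 8 of 50 shorter genes were elevated in cerebellum, and over calcium channel subunits 1 of 5 long and 7 of 17 shorter genes.

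Several listed channels were high in other tissues. KCNMA1, the large-conductance calcium-activated potassium channel, was elevated in kidney with 17.2 RPKM, against 3.34 in spleen, 2.66 in cerebellum, 1.61 in lung and 0.146 in heart. KCNQ5, a voltage-gated potassium channel, was elevated in spleen with 2.08 RPKM, against at most 0.50 elsewhere. TRPM3, a cation channel, had 7.90 RPKM in kidney and 3.19 in cerebellum and was elevated in neither.

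Of the 46 long members of the list of synaptic adhesion and axon guidance, 16 were elevated in cerebellum and in no case was a member elevated elsewhere. Here 8 of 21 shorter members were elevated in cerebellum, a share (38.1%) near that of the long members (34.8%). Shorter refers to the span of the listed model, such as 16.857 kb for PTPRK. Whether such models cover the whole gene was not tested. NCAM1, the neural cell adhesion molecule, had 30.4 RPKM in cerebellum, 0.566 in kidney, 1.11 in spleen, 3.35 in lung and 3.88 in heart. The relatives NEGR1 and NTM, cell surface proteins of the IgLON family, had 19.1 and 14.6 RPKM in cerebellum and at most 0.133 and 0.363 elsewhere. PCDH9, a protocadherin, had 17.5 RPKM in cerebellum, 1.18 in kidney and 0.109 to 0.638 in the other tissues. CNTNAP2, a relative of the neurexins that spans 1116.3 kb, had 5.83 RPKM in cerebellum, 0.801 in kidney and 0.0253 to 0.130 elsewhere. NLGN1, a postsynaptic partner of the neurexins, was nearest to the threshold with 5.98 RPKM in cerebellum and 1.45 in lung, a ratio of 4.14 (3.63 to 4.72) whose interval reaches below 4.

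Several guidance receptors and ligands of this list were low in cerebellum. DCC, the receptor of netrin-1, had 0.0990 RPKM there and at most 0.103 elsewhere. SLIT2, a secreted guidance ligand, had 9.75 RPKM in kidney, 5.74 in lung and 0.0417 in cerebellum. Its receptor ROBO1 had 4.05 RPKM in spleen, 1.32 in lung and 0.226 in cerebellum. SEMA5A, a semaphorin, had 17.6 RPKM in lung, 13.3 in kidney, 6.85 in spleen, 2.26 in heart and 0.982 in cerebellum. CDH13, a cadherin of vessels and heart muscle, had 27.0 RPKM in heart, 17.3 in lung and 0.461 to 0.917 in the other tissues. Of the 46 long members, 23 were detected in cerebellum (all long genes 314 of 527) and 29 were highest there (all long genes 208 of 508). The median of the 46 in cerebellum was 1.24 RPKM, below the 1.77 of all long genes.

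**Figure D4:**
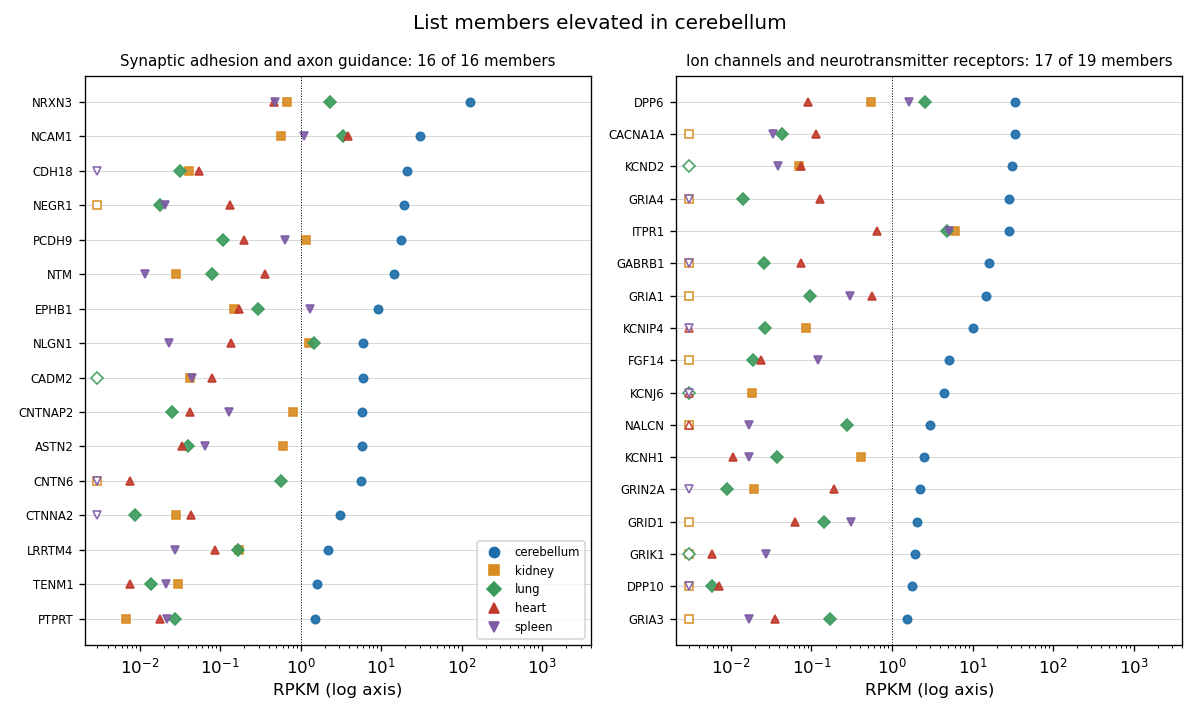
RPKM in the 5 tissues (x axis, log scale) of the 16 long genes of the adhesion and guidance list (left) and of 17 of the 19 of the channel and receptor list (right) that were elevated in cerebellum; each symbol is 1 library, the dotted line marks 1 RPKM, and open symbols drawn at 0.003 stand for values below 0.003. Cerebellum is to the right of all other tissues in every line, by a ratio of 4 or more.

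In the list of fragile-site and signalling genes, 6 of 39 long members (15.4%) were elevated in cerebellum and 1 of 10 shorter members. The share of the long members was below that of all long genes (20.3%). The shorter members included FHIT and GPC6, with listed models of 0.144 kb and 22.6 kb. RBFOX1, a neuronal splicing regulator that also acts in heart muscle, had 47.0 RPKM in cerebellum, 8.40 in heart, 0.282 in kidney, 0.147 in lung and 0.0218 in spleen. Heart was thus clearly above the remaining tissues, and cerebellum was 5.59 times heart (5.35 to 5.85). DLG2, a scaffold of the postsynaptic density, had 19 RPKM in cerebellum and 0.120 to 1.64 elsewhere. FSTL5, ZNF385D and NBEA had 22.3, 11.6 and 16.9 RPKM in cerebellum, and CA10 was described above. Of the fragile-site genes, WWOX, an oxidoreductase, lay between 0.529 and 3.33 RPKM, and IMMP2L, a mitochondrial peptidase, had 4.25 in kidney and 0.879 to 1.15 elsewhere.

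Of the 107 genes, 41 were on one of the lists and 66 on none. The following were chosen after their values were seen. The presynaptic scaffolds PCLO, RIMS1, RIMS2 and ERC2 had 17.6, 7.68, 6.43 and 1.01 RPKM in cerebellum, and none passed 0.194 elsewhere. CADPS2, which acts in the release of dense-core vesicles, had 38.6 RPKM in cerebellum and 6.14 in lung. TIAM1, an activator of the GTPase Rac, had 35.3 RPKM in cerebellum and at most 1.18 elsewhere, and CHN2, an inhibitor of Rac, had 60.0 in cerebellum and 5.19 in kidney. MAPK10, the neuronal JNK kinase, had 24.0 RPKM in cerebellum and at most 0.413 elsewhere. Of 6 long zinc finger genes, 2 were elevated in cerebellum, ZNF385D and ZNF804A (all long genes 20.3%), against 3 of 285 shorter ones. Families went either way. Among contactins and contactin-associated proteins, 2 of 5 long and 5 of 5 shorter genes were elevated in cerebellum. Among the 107 genes, 8 had no symbol, the highest of which was ENSMMUG00000005840 with 27.8 RPKM in cerebellum and 1.27 to 3.01 elsewhere.

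A smaller number of long genes was low in cerebellum. A gene was called low in a tissue if all other tissues had at least 1 RPKM and the lowest of them was at least 4 times its value there, a rule that was added after the data had been seen. This held for 13 long genes in cerebellum (2.47%; all genes 1.29%), 13 in heart (2.47%; all genes 1.79%), 2 in kidney (0.380%; all genes 0.161%), 1 in lung (0.190%; all genes 0.0314%) and 1 in spleen (0.190%; all genes 0.203%). LDB2, a LIM domain-binding cofactor known from vessels, had 53.9 RPKM in lung, 44.8 in spleen, 21.3 in kidney, 4.11 in heart and 0.618 in cerebellum. PALLD, an actin-associated protein, had 35.5 RPKM in heart, 29.5 in spleen, 23.3 in lung, 7.90 in kidney and 1.5 in cerebellum. LTBP1, which binds latent TGF-beta in the extracellular matrix, had 9.75 to 17.6 RPKM in the other tissues and 0.861 in cerebellum. LPP, a protein of focal adhesions, had 1.04 to 8.05 RPKM elsewhere and 0.154 in cerebellum. ARHGAP24, a GTPase-activating protein known from kidney podocytes, was among the highest long genes of kidney with 43.3 RPKM and had 29.3 in spleen, 10.2 in lung, 2.36 in heart and 0.455 in cerebellum. The single gene low in lung, named after its values were seen, was ANK2, an ankyrin of excitable cells, with 0.654 RPKM there, 24.3 in cerebellum, 21.0 in kidney, 5.94 in heart and 3.29 in spleen.

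In kidney, the 19 elevated long genes included a transporter, several enzymes and a protein of the primary cilium. SLC4A4, the sodium bicarbonate cotransporter of the proximal tubule (chr5:58086722-58476499), had 82.4 RPKM in kidney, 16.9 in cerebellum, 1.90 in lung, 0.239 in heart and 0.237 in spleen, and kidney was 4.87 times cerebellum (4.75 to 4.98). PKHD1, which encodes fibrocystin of the primary cilium (chr4:51292378-51701545), had 16.2 RPKM in kidney, 0.987 in lung, 0.0172 in spleen, 0.00304 in heart and no read in cerebellum. Kidney was 16.4 times lung (15.3 to 17.7). PCCA, a subunit of propionyl-CoA carboxylase that was chosen after its values were seen, had 27.0 RPKM in kidney and 4.04 to 5.60 elsewhere. SUGCT, which transfers coenzyme A to glutarate, had 37.1 RPKM in kidney and at most 0.658 elsewhere, a ratio of 56.5 to spleen (44.4 to 73.0). GHR, the growth hormone receptor, was chosen in the same way and had 12.9 RPKM in kidney and 0.696 to 2.17 elsewhere.

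The largest ratio in kidney was that of AGMO, an enzyme that cleaves ether lipids, with 11.2 RPKM in kidney, 0.0679 in lung, 0.0216 in cerebellum, 0.0185 in heart and no read in spleen, a ratio of 165 (104 to 279). CPNE4, a copine, had 2.47 RPKM in kidney from 200 reads and no read in the other tissues, so that kidney was at least 87.4-fold higher, taking 3 reads per library as the smallest number counted. STK32B, a protein kinase, had 11.3 RPKM in kidney and at most 0.228 elsewhere, and MYO3B, a class III myosin, had 1.16 in kidney and at most 0.0552 elsewhere. ENSMMUG00000009382, a gene without a symbol, had 58.1 RPKM in kidney and 4.13 to 12.3 elsewhere. Of the 18 long members of the list of kidney and lung epithelium and vessels, only PKHD1 was elevated in kidney, 17 were detected there, and none was elevated in another tissue. Among solute carriers, 1 of 8 long genes and 62 of 307 shorter genes were elevated in kidney.

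In lung, 5 long genes were elevated. ADGRL2, an adhesion receptor of the latrophilin family (chr1:84117112-84796222), had 59.2 RPKM in lung, 7.96 in kidney, 5.33 in spleen, 4.12 in heart and 3.18 in cerebellum, and lung was 7.44 times kidney (7.14 to 7.76). DLC1, a GTPase-activating protein, had 23.3 RPKM in lung and 3.01 to 4.89 elsewhere, and MYO1D, a class I myosin, had 14.4 in lung and 0.206 to 2.65 elsewhere. DNAH11, a dynein heavy chain of motile cilia (chr3:104296467-104655294), had 1.35 RPKM in lung, 0.0519 in heart, 0.00302 in kidney, 0.00269 in cerebellum and no read in spleen. The ratio to heart was 26.1 (19.4 to 35.9). HPSE2, a relative of heparanase, had 1.63 RPKM in lung and at most 0.0915 elsewhere. PALM2AKAP2, whose protein anchors protein kinase A, was high in lung without being elevated, with 82.1 RPKM there, 26.8 in spleen, 16.9 in kidney, 15.3 in heart and 3.62 in cerebellum. Without the spleen library, 17 long genes instead of 5 were elevated in lung (all genes 4.70%), an alternative that was added after the data had been seen.

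In heart, 4 of the 5 elevated long genes were known muscle genes. TRDN, which encodes triadin of the sarcoplasmic reticulum (chr4:140381078-140725250), had 16.6 RPKM in heart from 2260 reads, 2 reads in lung and none in the other tissues, a ratio of 1388 (384 to 11469) from so few reads, and of 575 as used for the call. NEBL, the gene of nebulette, a protein of the cardiac Z-disc (chr9:21012119-21396970), was the highest long gene in heart with 117 RPKM, and had 24.6 in lung, 21.4 in cerebellum, 3.0 in kidney and 2.24 in spleen. SORBS2, an adaptor protein of the Z-disc, had 45.7 RPKM in heart and 2.40 to 3.53 elsewhere. XIRP2, an actin-binding protein of striated muscle, had 11.7 RPKM in heart, 0.507 in lung, 0.341 in cerebellum, 0.0193 in spleen and no read in kidney.

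The fifth gene was FPGT, a gene of fucose metabolism. Its transcript of 310284 bp (chr1:77051197-77361480) had 26.3 RPKM in heart, 0.245 in cerebellum and no read in the other tissues. The RefSeq table of another assembly (T2T-MMU8v2.0) lists TNNI3K, a kinase gene, next to FPGT, and whether the long model joins both genes was not tested. RYR2, the ryanodine receptor through which calcium leaves the sarcoplasmic reticulum, had 28.8 RPKM in heart, 9.87 in cerebellum, 4.10 in kidney, 0.431 in spleen and 0.510 in lung, and was not elevated, since heart was 2.92 times cerebellum (2.86 to 2.98). ABLIM1, an actin-binding protein, was high in both heart (53.3 RPKM) and cerebellum (64.8). Of the 16 long genes of the muscle and heart list, 3 were elevated in heart, 11 were detected there and 11 were highest there, with a median of 3.65 RPKM in heart and 0.663 to 1.47 elsewhere. DMD, the dystrophin gene, had 4.89 RPKM in heart, 2.42 in lung, 1.69 in spleen, 1.31 in cerebellum and 0.925 in kidney. All 5 listed genes of shorter span were highest in heart, and 4 of them were elevated. When the libraries were scaled to the same upper quartile, 13 long genes instead of 5 were elevated in heart (all genes 1.35%), so the count in heart depends on the scaling.

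In spleen, the elevated long genes included regulators of lymphocytes. BANK1, a scaffold protein of B cell receptor signalling (chr5:94767377-95079401), had 21.3 RPKM in spleen, 0.749 in lung, 0.0196 in heart, 0.0913 in cerebellum and 0.154 in kidney, and spleen was 28.4 times lung (24.5 to 33.0). DOCK2, which activates Rac in leukocytes, had 19.8 RPKM in spleen, 4.93 in lung and at most 0.203 elsewhere, with a ratio of 4.02 (3.82 to 4.24) whose interval reaches below 4. ARHGAP15, a GTPase-activating protein for Rac, had 29.0 RPKM in spleen, 4.57 in lung and 0.0265 to 0.783 elsewhere. HDAC9, a histone deacetylase, had 5.61 RPKM in spleen and at most 0.634 elsewhere. CPA6, a carboxypeptidase, had 2.49 RPKM in spleen from 281 reads and at most 5 reads elsewhere, a ratio of 40.5 to kidney (17.1 to 126). Lung was the next tissue for 8 of these 10 genes.

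**Figure D5:**
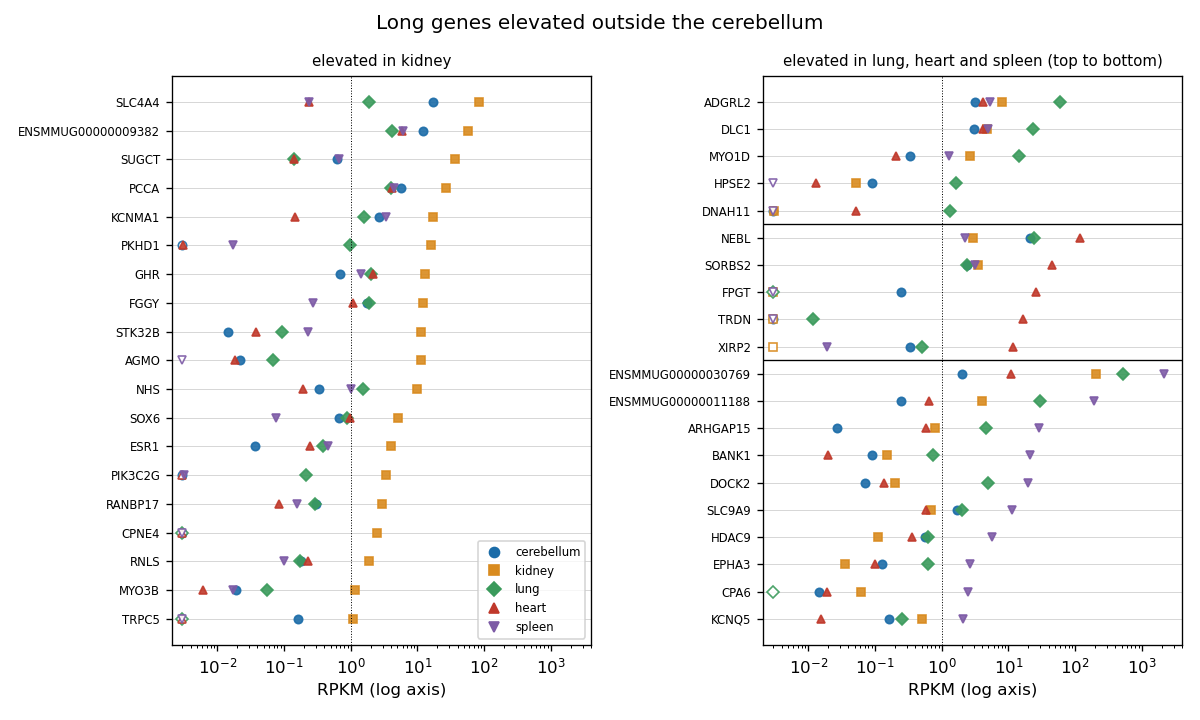
RPKM in the 5 tissues (x axis, log scale) of the 19 long genes elevated in kidney (left) and of the 5 elevated in lung, 5 in heart and 10 in spleen (right, separated by lines); each symbol is 1 library, the dotted line marks 1 RPKM, and open symbols drawn at 0.003 stand for values below 0.003. In spleen the next tissue is mostly lung, and TRDN and CPNE4 are close to absent outside heart and kidney.

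The immune list had 14 long members, all detected in spleen and in lung, with medians of 9.19 RPKM in spleen, 5.63 in lung, 4.78 in cerebellum, 1.42 in kidney and 1.04 in heart. DOCK2 and ARHGAP15 were its only members elevated in spleen, against 4 of 12 shorter ones. Of the 14, 6 were highest in spleen and 6 in cerebellum. ELMO1, a partner of DOCK proteins in activating Rac, had 40.6 RPKM in cerebellum, 18.8 in spleen, 12.1 in lung, 1.38 in heart and 1.32 in kidney. PRKCB, a protein kinase C of B cells and neurons, had 27.2 RPKM in cerebellum, 21.6 in spleen, 4.52 in lung, 1.61 in kidney and 0.168 in heart. These genes were high in both tissues and elevated in neither.

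The highest values of all long genes belonged to 3 genes without a symbol. ENSMMUG00000030769 on chromosome 13 had 2144 RPKM in spleen, 531 in lung, 203 in kidney, 11.1 in heart but 2.0 in cerebellum. ENSMMUG00000015202 on chromosome 7 had 1229 RPKM in spleen, 319 in kidney, 298 in lung, 11.1 in heart but 0.207 in cerebellum. ENSMMUG00000011188 on chromosome 3 had 192 RPKM in spleen, 29.3 in lung, 0.242 in cerebellum, 0.652 in heart and 4.05 in kidney. In all 3, spleen was highest and cerebellum lowest. Their exons measured 959, 1543 and 1115 bp, short for genes of this span, and each had 5 or more listed transcripts.

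Some long genes were even across the tissues. DST, a cytoskeletal linker protein of the plakin family, had 12.6 RPKM in cerebellum, 12.8 in heart, 14 in kidney, 14.1 in spleen and 15.3 in lung, so that the highest was 1.21 times the lowest. FAF1, an adaptor of protein degradation, lay between 4.35 and 5.68 RPKM, COG5, a subunit of a Golgi tethering complex, between 5.45 and 8.31, CCDC91, a protein of Golgi trafficking, between 4.50 and 7.15, and FBXL17, a subunit of a ubiquitin ligase, between 2.45 and 4.27. These were the most even of the 121 long genes detected in all tissues.

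Annotation bears on the level of a long gene. Of the 527 genes, 371 had several listed transcripts, 239 also had a transcript below 300 kb, and in 128 another transcript had the higher sum of RPKM. Among these 128, the long transcript was elevated in cerebellum for 29 and the strongest transcript for 30, and 29 genes were common to both. The agreement was complete in kidney (4 genes by each) and lung (3 genes by each), and 3 of 4 genes in heart were common. In spleen the long transcript was elevated for 0 of these genes and the strongest transcript for 1. Transcripts of a gene can share reads, so this does not show that both are used. Some genes of the lists have short models here, among them FHIT at 0.144 kb, PTPRK at 16.857 kb and GPC6 at 22.6 kb, and these counted as shorter genes. Whether such models cover the whole gene was not tested. The shorter members of a list may therefore hold long genes with incomplete models. Whether the models of long genes, such as that of DMD at 390 kb, are complete was not tested either. Span and its classes are those of the listed models. Of the 16 long genes without a read in any tissue, 15 had no symbol.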

How the data were processed

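For each tissue the authors deposited a table of 51763 transcripts of rheMac2 with the read count, the RPKM value, the exon length and the location. Per the file headers, RPKM refers to the properly mapped reads, and it could be recomputed from the deposited counts in every case. The submitters' processing notes name TopHat 1.2.0, and the study's methods describe alignment with BWA to rheMac2 and to Ensembl transcripts. The counting tool, and how reads shared by transcripts were assigned, are not given in the sources used here. Starts are 0-based in 4 tables and 1-based in that of spleen, and span was the end minus the 0-based start. Transcripts without a gene identifier (8057) were not used. Symbols came from a table of Ensembl identifiers. No sequence was used here.

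No normalization was added to the deposited RPKM. Detection was set at 1 RPKM and elevation at a ratio of 4, with under 3 reads set to the RPKM of 3 reads for the call, whereas printed ratios of single genes use the measured values. Intervals are 95% exact (Poisson for RPKM, conditional binomial for ratios, Clopper-Pearson for shares). Those of RPKM and ratios cover counting error only, and those of shares treat genes as independent, which they are not. The 527 members, the 6 gene lists, the tissue markers and the rules were chosen with earlier results of these data known. Named genes were the 10 longest, the 5 highest and the 5 with the largest ratio in each tissue, the 5 most even, the 3 on each side of the span threshold and the members of the lists. Gene families were taken by symbol after the data had been seen, as were other genes where the text says so. Alternatives were other ratios, detection thresholds, spans, transcripts and scalings, and leaving out the heart or the spleen library. The calls were run on simulated data with Poisson counting noise only, where all tissues shared the same level before some genes were raised. This checks that the code follows the rule. It does not cover raised genes near 1 RPKM, ratios close to 4, or variation between animals or libraries. The software was scipy 1.17.1, pandas 2.3.3, numpy 2.4.6 and matplotlib 3.10.9 under Python 3.11.15. The values of a few list members are not reported here, and they remain in the counts.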

Additional observations from a re-analysis of the deposited data

How the results depend on the processing

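Cerebellum held the most elevated long genes and the highest share of detected long genes under every alternative tried. Elevated counts for cerebellum ranged from 42 (span of 500 kb or more, 23.3%; all genes 3.46%) to 153 (span of 200 kb or more, of 1017 genes). Each span setting took the strongest transcript of that span, so 180 genes had one of 500 kb or more, against the 157 whose transcript used elsewhere was that long. With a ratio of 10 they were 70 in cerebellum (13.3%; all genes 2.20%), 7 in kidney (1.33%; 1.55%) and 2 each in lung (0.380%; 0.960%) and spleen (0.380%; 0.664%). With a ratio of 2, kidney had 33 (6.26%; 4.16%), lung 26 (4.93%; 3.94%), heart 13 (2.47%; 1.31%) and spleen 20 (3.80%; 4.77%, so below all genes). Detection at 5 RPKM left 12 elevated in kidney (2.28%; 1.93%) and 3 in lung (0.569%; 1.04%). Upper quartile scaling gave 13 in heart (2.47%; 1.35%) and 6 in spleen (1.14%; 1.56%). In the order kidney, lung, heart, spleen, a span of 200 kb gave 32, 21, 9 and 16 (3.15%, 2.06%, 0.885% and 1.57%), and a span of 500 kb gave 3, 2, 0 and 5 (1.67%, 1.11%, 0% and 2.78%), where all genes had 2.48%, 1.85%, 0.698% and 1.97%. With the strongest transcript of each gene, kept only at 300 kb or more, 2 were elevated in lung and 2 in heart (0.501% each; all genes 1.85% and 0.698%). Without the spleen library 17 were elevated in lung (3.23%; all genes 4.70%).

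In the order cerebellum, kidney, lung, heart, spleen, detected shares were 70.0%, 58.1%, 59.2%, 45.4% and 54.3% at 0.5 RPKM (all genes 45.3%, 46.4%, 49.8%, 38.9% and 47.7%), and 29.6%, 19.4%, 22.2%, 9.68% and 20.5% at 5 RPKM. At 5 RPKM the shares of all genes were 21.9%, 24.2%, 27.7%, 13.7% and 27.8%, so long genes were then detected less often than all genes in every tissue but cerebellum. With a span of 500 kb the shares of long genes were 52.2%, 40.6%, 40.6%, 26.7% and 37.2%, and those of all genes 39.9%, 41.8%, 45.4%, 32.5% and 43.7%, so the same held there. With a span of 200 kb the shares outside cerebellum were 55.1%, 59.7%, 38.8% and 55.1% (all genes 41.7%, 45.4%, 32.5% and 43.7%). Upper quartile scaling moved the share to 41.6% in heart (all genes 37.5%) and 41.7% in spleen (41.3%).

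Median percentiles were 50.1, 39.0, 37.1, 38.9 and 34.7 among genes with 3 reads or more, 43.3, 30.2, 27.9, 31.1 and 28.2 among genes with 2000 bp of exon or more, 52.4, 43.3, 40.9, 43.4 and 40.1 among genes with a symbol, and 61.8, 54.5, 49.1, 52.8 and 50.2 with a span of 500 kb. With a span of 200 kb the percentiles outside cerebellum were 60.8, 61.0, 61.1 and 58.5. The share of long genes highest in cerebellum was 34.6% with a span of 200 kb and 47.3% with 500 kb. The restrictions to genes with a symbol, to named models and to libraries without spleen were chosen after seeing the data, except for the share highest in cerebellum without spleen. No paired analysis was possible because each tissue has 1 library. Depth limits low values, and levels under 3 reads were set to the RPKM of 3 reads for the calls.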

Other observations

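Of the 8057 transcripts without a gene identifier, 32 spanned 300 kb or more and entered no comparison.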
